A study of Homo sapiens with 42 samples.

Results

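Cells expressing RPL3L in which one aspartate is replaced by asparagine (D308N) were compared with cells expressing RPL3L with valine at the same residue (D308V). Each group had 3 whole-cell polyA RNA libraries, 6 of the 30 whole-cell libraries and of the 42 libraries in the series. Genes were taken where the mean over these 6 libraries was at least 1 TPM, a unit that scales reads by transcript length and gives each library the same total, which left 14387 of 60612 entries. MIR4782, with a mean just above 1 TPM, was the lowest gene kept, and LINC02084, just under 1, was the first left out. Both groups are AC16 cells, a proliferating human line made by fusing ventricular cardiomyocytes with fibroblasts and labelled cardiomyocyte-like. All cells carried a doxycycline-inducible hairpin against RPL3 and, from a lentiviral vector, the RPL3L variant, and the medium held doxycycline at 1 ug/ml. Hairpin cells were kept by hygromycin selection, and RPL3L cells were then sorted on the BV421 channel, in which the vector's EBFP2 fluoresces. The other 8 groups, 3 libraries each, serve only as reference points. In shScramble the hairpin sequence is scrambled, and shRPL3 cells are labelled with the RPL3 hairpin and no RPL3L. Replicate 3 of shRPL3 nevertheless held EBFP2 of the RPL3L vector at 434 TPM, against 0 in replicates 1 and 2. RPL3L-WT cells add unmutated RPL3L to the RPL3 hairpin, and the last 5 groups add RPL3L with P291L, R343W, G27D, R161W or T189M. Nothing in the labels says that replicates were separate cultures or that a variant was introduced more than once. P-values therefore measure the spread between these libraries, and variant and line cannot be told apart.

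RPL3 is a protein of the large (60S) ribosomal subunit that reaches towards the peptidyl transferase centre, where peptide bonds form. RPL3L is its paralogue in heart and skeletal muscle, where it takes the place of RPL3 in part of the ribosomes. Aspartate carries a negative charge. Asparagine keeps nearly the same shape with an amide in place of the acid, whereas valine is a branched hydrophobic residue.

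The codons around this aspartate are shown because both variants change this position and because RPL3, which the constructs replace, holds the same residue there. In GENCODE 29 (GRCh38), the aspartate's codon in RPL3L is in exon 7 on the minus strand at chr16:1946652-1946654. The aligned codon of RPL3 has the same number and is also in exon 7 on the minus strand at chr22:39314134-39314136. The 27 bases of codons 304 to 312 run 5′ to 3′ on the coding strand, with the aspartate codon in capitals.
RPL3L: tccaccagctacGACgtgactgccaag
RPL3: tccactgactatGACctatctgacaag
Both codons are GAC, for aspartate. Across this window 19 of 27 bases and 5 of 9 residues were identical, and over 402 aligned residues 313 (77.9%) were identical. The letters are those of the reference, and the vectors' own bases were not read.

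Transcripts of the construct were not at equal levels in the 2 lines. RPL3L was at 4951, 5198 and 5198 TPM in the D308N libraries and at 2984, 2667 and 2911 TPM in the D308V libraries. Every D308N library was above every D308V library, 1.79 times on the means, with a log2 fold change of 0.84 (SE 0.04) on the log2(TPM + 1) scale and an adjusted p = 1.35e-04 by limma. Other sequences of the same vector followed. The transactivator rtTA3 was at 17675 ± 392.4 TPM (SD, n = 3) in D308N and 9590 ± 627 in D308V, a ratio of 1.84, and EBFP2 at 18057 ± 1082 and 9729 ± 700, a ratio of 1.86. Within a library RPL3L stood at 0.287 to 0.292 of rtTA3 in D308N and at 0.293 to 0.301 in D308V. Hairpin-vector sequences differed less, with HygR at 705 ± 86.8 TPM in D308N and 610 ± 28.2 in D308V. Whether the level of construct transcripts plays a part in any difference below was not tested, and level and variant cannot be told apart in these 6 libraries.

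**Figure D1:**
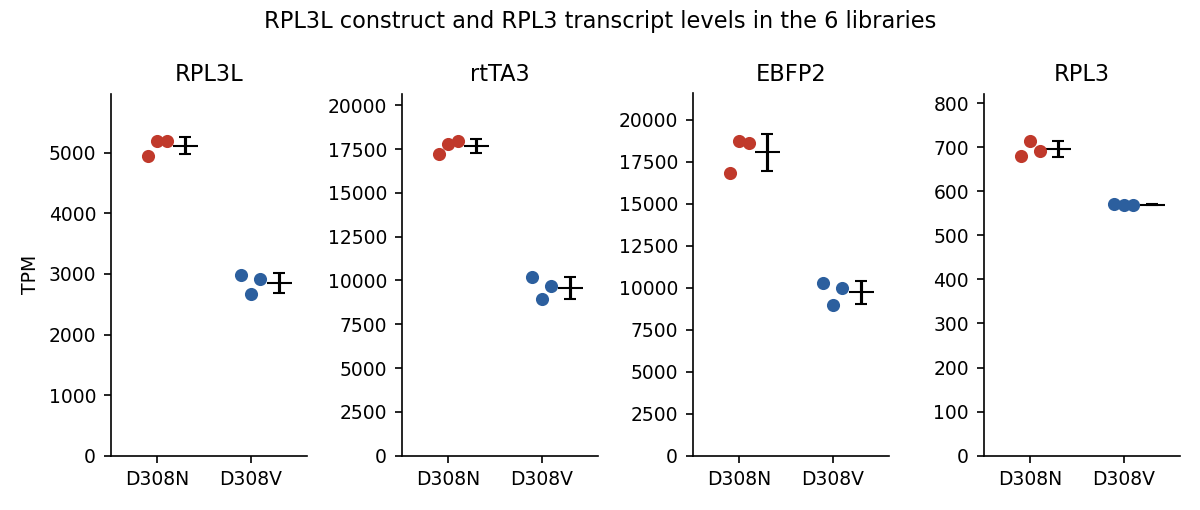
TPM (y axis, from 0) of RPL3L, of rtTA3 and EBFP2 from the same vector, and of RPL3 in the D308N (red) and D308V (blue) libraries, one point per library, with the mean and SD beside them. All 3 vector sequences were 1.79 to 1.86 times as high in D308N, whereas RPL3 was 1.22 times as high.

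RPL3, the hairpin's target, was low in both lines. It was at 680, 714 and 691 TPM in D308N and at 571, 568 and 570 in D308V, against 1570.2 ± 38.8 in shScramble and 536 ± 35.2 in shRPL3. The D308N libraries were all above the D308V libraries, by 0.29 on the log2 scale (SE 0.03, limma adjusted p = 0.00429). Transcripts of RPL3L outnumbered those of RPL3 in both, 7.36 ± 0.14 to 1 in D308N and 5.01 ± 0.28 to 1 in D308V. The sum of the 2 paralogues was 5811 ± 156 TPM in D308N and 3423 ± 168 in D308V.

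The transcriptomes were close. Pearson's r of log2(TPM + 1) was 0.980 to 0.982 between libraries of D308N, 0.979 to 0.982 between those of D308V and 0.974 to 0.981 between the groups. Read depth is unknown, since TPM sums to the same total in each library. Of 19 cardiomyocyte markers, 17 were under 1 TPM in all 6 libraries and MYH6, MYL2, MYL7, NPPA and MYBPC3 were at 0, so the cardiac identity in the label did not show in these markers. The summed level of the list was 53.7 to 59.3 TPM in D308N and 65.2 to 70.5 in D308V. Nearly all of it was GJA1, at 52.1 ± 2.49 and 65.3 ± 3.27 TPM. All 11 fibroblast markers were above 1 TPM on average, with sums of 4182 to 4433 TPM in D308N and 4444 to 4746 in D308V, and FAP and VIM of that list were lower in D308N past the threshold, both lost without D308N 3 or D308V 3, while 4 of the 11 had positive and 7 negative log2 fold changes, with a median of -0.01. Epithelial markers summed to 282 to 305 TPM in D308N and 216 to 233 in D308V, most of it KRT18 (272 ± 10.8 and 203 ± 9.36 TPM). Of these 8 markers, 4 were under 1 TPM in all 6 libraries and KRT5 was at 0. All 8 endothelial markers were under 1 TPM in each library. Immune markers summed to 76.0 to 83.2 TPM in D308N and 98.8 to 103 in D308V, nearly all of it CD68, with CD3E at 0, and neural markers to 62.0 to 76.6 and 82.2 to 91.5 TPM. In bulk RNA, fewer cells of a type and less RNA per cell cannot be told apart, and the part of these marker shifts in other results was not tested.

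Of the 14387 genes, 442 (3.07%) differed between the lines at an adjusted p under 0.05 (limma). In D308N 196 (1.36%) were higher and 246 (1.71%) lower. The changes were small: their median size was 0.43 on the log2 scale, and 274 of 442 were under 0.5. Only 11 of the 383 protein-coding genes called moved by more than 1. The libraries of the 2 groups did not overlap for any of the 442, nor for 3877 genes (26.9%) in all. The count depended on single libraries: it was 504 without D308N 1, 164 without D308N 2, 124 without D308N 3, 242 without D308V 1, 162 without D308V 2 and 110 without D308V 3. A core of 90 genes, 25 higher and 65 lower in D308N, passed in all 6 of these fits. All 442 kept their sign in every alternative in which they were tested. Only median-ratio scaling could have reversed a sign, because the groups did not overlap and the other alternatives use the same values in the same order.

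Of the 6 pairs among the D308N, D308V, R343W and P291L lines, the pair that shares the mutated residue had the fewest calls. Pairs with the other lines were not fitted. The same fit on 6 libraries called 2292 genes (16%) between D308V and R343W, 3915 (27.2%) between D308N and R343W, 4870 (33.8%) between D308N and P291L, 5458 (37.9%) between D308V and P291L and 5537 (38.4%) between R343W and P291L. These pairs share libraries, so their counts stand side by side with no test between them. The median size of the difference over all genes tested was 0.11 on the log2 scale for D308N against D308V and 0.15 to 0.21 for the other 5 pairs. With 18 libraries of 6 groups in 1 fit, the 442 became 1215 genes (8.45%), still the lowest count of the 6 pairs.

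**Figure D2:**
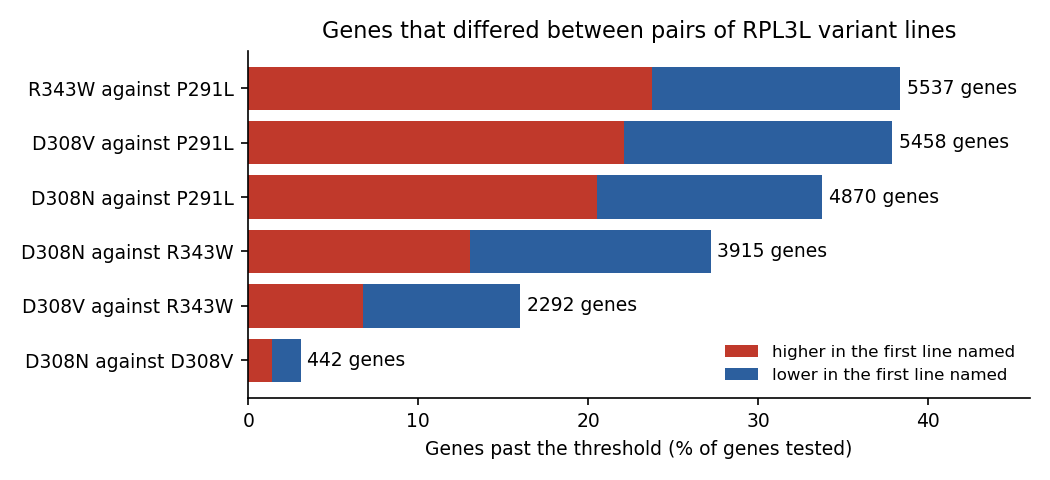
Percent of genes tested that passed the threshold (x axis) in each of 6 pairs of RPL3L variant lines, divided into genes higher (red) and lower (blue) in the line named first, with the number of genes at the end of each bar. The same-residue pair has the shortest bar, 3.07% against 16 to 38.4%.

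Among secreted signals, activin and its antagonist follistatin were both lower in D308N. INHBA (chr7:41667168-41705834, minus strand) codes for the activin A subunit. It was at 11.1, 9.89 and 10.1 TPM in D308N and at 24.3, 25.4 and 25.1 in D308V. Every D308V library was more than 2 times any D308N library, and the log2 fold change was -1.19 (SE 0.07, adjusted p = 2.77e-04). FST (chr5:53480409-53487134, plus strand) codes for follistatin, which binds activin. It was at 15.0, 13.5 and 14.1 TPM in D308N and at 29.3, 30.9 and 29.6 in D308V, again with no overlap (-1.03, SE 0.07, adjusted p = 2.99e-04). INHBB, the subunit of activin B, went the other way, at 5.29, 5.22 and 5.07 TPM against 3.01, 2.83 and 3.29 (0.62, adjusted p = 0.0213), and its call was lost without any of D308N 2, D308N 3, D308V 1, D308V 2 or D308V 3.

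Of 29 TGF-beta, activin and BMP genes tested, 7 (24.1%, beside 3.07% of all genes) passed the threshold (limma), 6 lower and 1 higher in D308N. The list median was -0.07 beside 0.01 for all genes. Others that fell were the BMP antagonist GREM1 (-0.35) and the BMP-response genes ID1 (-0.38) and ID2 (-0.38), which lost its call without any of D308N 2, D308N 3, D308V 2 or D308V 3. Without D308N 1, 3 genes of the list were higher. GREM1 and ID1 were described after their values were seen. TGFB1 itself was at 48.3, 50.5 and 49.7 TPM in D308N and 47.3, 42.9 and 49.9 in D308V, overlapping (adjusted p = 0.506).

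The heme-degrading enzyme gene HMOX1 was also lower in D308N. HMOX1 (chr22:35380361-35394214, plus strand) was at 53.9, 56.8 and 53.4 TPM in D308N and at 112, 116 and 111 in D308V. The groups lay far apart relative to their spread (-1.03, SE 0.05, adjusted p = 7.83e-05), and the call held in all 15 alternatives. Of 27 NRF2 antioxidant genes tested, 6 (22.2%, beside 3.07% of all genes) were lower and 0 higher past the threshold. A negative log2 fold change was found for 23 of 27, with a median of -0.14. NQO1, a quinone reductase, was at 200, 205 and 205 TPM against 264, 277 and 273 (-0.41, SE 0.04, adjusted p = 0.00131), with no overlap, and lost its call with all 30 libraries in the fit. The count of 6 fell to 3 without D308V 1 and to 3 without D308V 3, and was 4 or 5 without each of the other 4 libraries.

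Metallothioneins, small proteins that bind zinc and copper, made up 3 of those 6. MT2A was the most abundant, at 2479, 2536 and 2484 TPM in D308N and 4002, 3955 and 3654 in D308V. The lowest D308V library was far above the highest D308N library (-0.63, SE 0.04, adjusted p = 2.77e-04). MT1X, described after its values were seen, was at 77.1, 71.6 and 76.4 TPM against 96.2, 91.3 and 101 (-0.35, adjusted p = 0.0191). The MT1X call was lost without D308V 1 or D308V 3, where only HMOX1, NQO1 and MT2A of the list stayed lower past the threshold. MT1E was at 93.7, 97.2 and 70.0 TPM against 147, 170 and 138, barely past the threshold (adjusted p = 0.0499), and the call was lost without any of the libraries except D308N 3. Of 16 metallothionein genes and pseudogenes in the table, 5 were tested, and MT1A (0.48, adjusted p = 0.338) and MT1F (-0.51, adjusted p = 0.525) did not pass. These paralogues share sequence, so the division of reads among them is uncertain.

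The promoter of MT1X is shown because MT1X, MT1E and MT2A were lower in D308N and metallothionein genes are known to be switched on by metal through the metal response element. The RefSeq sequence (GRCh38.p14, plus strand) is printed from 250 bases before the start site up to the first exon in GENCODE 29, chr16:56682220-56682423, with matches to the core of that element in capitals.
MT1X promoter: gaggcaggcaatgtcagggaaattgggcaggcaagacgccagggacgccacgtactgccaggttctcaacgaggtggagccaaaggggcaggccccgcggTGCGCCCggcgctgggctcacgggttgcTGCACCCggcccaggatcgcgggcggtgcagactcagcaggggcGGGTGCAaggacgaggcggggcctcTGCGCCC
The search used TGCACNC and TGCGCNC on both strands. The 204 bases hold 4 matches, none of which overlap, and the 250 bases before the MT2A start site hold 7. Of 35116 promoters of 250 bases, 24.8% held at least 1 match and 1.58% at least 3. A match describes the letters only.

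Several sterol genes were lower in D308N. Cells sense cholesterol through SREBP factors, which INSIG1 holds in the endoplasmic reticulum, and SREBP turns on INSIG1 itself and the synthesis enzymes. INSIG1 (chr7:155297776-155310235, plus strand) was at 39.4, 37.1 and 35.9 TPM in D308N and 66.3, 62.7 and 69.6 in D308V, with no overlap (-0.80, SE 0.06, adjusted p = 5.88e-04, called in all 15 alternatives).

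Of 23 cholesterol synthesis genes, 4 (17.4%, beside 3.07% of all genes) were lower past the threshold, HMGCS1, FDFT1 and MSMO1 among them, and 0 were higher. A negative log2 fold change was found for 19 of 23, with a median of -0.18 beside 0.01 for all genes. HMGCS1, an early enzyme of the pathway, was at 30.5, 28.5 and 32.1 TPM against 36.8, 39.9 and 41.7, with no overlap (-0.37, adjusted p = 0.0360), and its call was lost without any library except D308V 1. The count of 4 fell to 1 without any of D308N 2, D308N 3, D308V 2 or D308V 3. Among 15 sterol sensing and transport genes, 6 (40%) passed. Lower were 4, SREBF2, INSIG1 and STARD4 among them, while SREBF1 (0.56) and MYLIP (0.55) were higher. Without 1 library 1 to 3 of the 4 stayed lower past the threshold, and 0 or 1 of the 2 higher. Of 17 fatty acid synthesis genes, SCD, FADS2 and MID1IP1 (17.6%) were lower and 0 higher. The list had 11 negative and 6 positive log2 fold changes, and 0 or 1 gene passed with any 1 library left out. SCD, a desaturase, was at 18.8, 16.5 and 17.5 TPM against 25.3, 24.8 and 26.9 (-0.52, SE 0.07, adjusted p = 0.0113), and FADS2, another desaturase, at 16.2 ± 1.11 against 22.3 ± 1.61. SCD lost its call without D308N 3 or D308V 3, and FADS2 without any 1 library.

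Most transcripts encoded by the mitochondrial genome were lower in D308N. All 13 protein genes, which code for subunits of the respiratory chain and ATP synthase, had negative log2 fold changes, with a median of -0.35. Past the threshold were 11 (84.6%, beside 3.07% of all genes). Their summed level was 60600.2, 54931 and 57936 TPM in D308N, 5.78% ± 0.28 of all TPM, and 74240 (D308V 1), 75820 (D308V 2) and 72899 TPM (D308V 3) in D308V, 7.43% ± 0.15. The groups did not overlap. MT-CO1, a subunit of cytochrome oxidase, was at 8014, 7600 and 7915 TPM against 10587, 10456 and 10339 (-0.42, SE 0.03, adjusted p = 2.99e-04). MT-ATP6 (-0.48) and MT-ND4 (-0.37) also passed with any 1 library left out. With all 30 libraries in the fit 0 of 13 passed, from adjusted p = 0.0506 for MT-CO1 to 0.918 for MT-ND1, with summed levels of these genes in RPL3L-WT ranging from 72289 to 139974 TPM between libraries. The part of that range in the lost calls was not tested. With 18 libraries 12 passed, without trend or robust 3, with no filter on low values 6, and with the replicate block 7. In the fit of 6 libraries MT-ND3 (-0.13, adjusted p = 0.201) and MT-ND6 (-0.64, adjusted p = 0.1001) did not pass. Without 1 library 6 (without D308N 3 or D308V 2) to 11 (without D308N 1) genes passed.

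The nuclear genes of the same complexes gave no call. Of 71 nuclear respiratory-chain genes, 0 passed the threshold in the limma fit, and their log2 fold changes ranged from -0.14 to 0.18 with a median of 0.03. The groups did not overlap for 14 of the 71 (19.7%), beside 26.9% of all genes. Of 77 mitochondrial ribosomal protein genes, 3 were higher (MRPL2, MRPL24 and MRPS14) and 0 lower, with a median of 0.04. This share of 3.9% was near the 3.07% of all genes. The 3 became 0 without any of D308N 3, D308V 1, D308V 2 or D308V 3 and 1 without D308N 2.

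**Figure D3:**
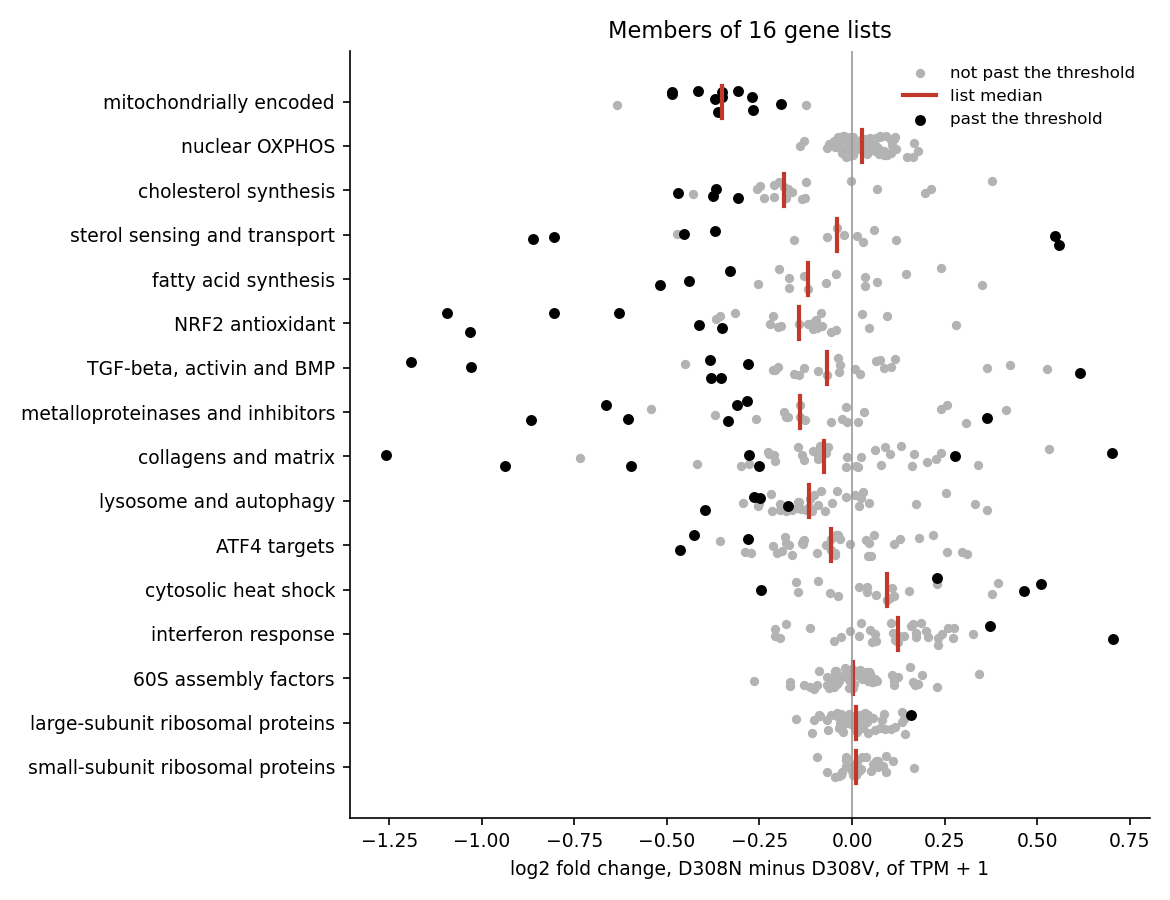
Log2 fold change of TPM + 1, D308N minus D308V (x axis), of the tested members of 16 gene lists (y axis), one point per gene, black where the adjusted p was under 0.05, with the list median in red. The 13 mitochondrially encoded genes all lie left of 0, while the nuclear respiratory-chain and ribosomal lists centre on 0.

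Among extracellular proteases, MMP2 and ADAMTS1 were lower in D308N. MMP2, a gelatinase, was at 290, 276 and 273 TPM in D308N and 431, 416 and 428 in D308V, with no overlap (-0.60, SE 0.04, adjusted p = 2.99e-04). ADAMTS1, which cleaves proteoglycans, was at 60.1, 55.0 and 57.3 TPM against 91.4, 88.4 and 95.2 (-0.66, SE 0.05, adjusted p = 8.22e-04). Of 26 genes on the list of metalloproteinases and inhibitors, 7 (26.9%, beside 3.07% of all genes) passed. Of these, 6 were lower and 1, the serine protease gene PLAU, was higher. The 6 became 5 without D308N 1, 3 without D308N 2, D308V 1 or D308V 2, and 2 without D308N 3 or D308V 3, and PLAU lost its call without any 1 library.

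Of 42 collagen and matrix genes, 7 (16.7%, beside 3.07% of all genes) passed, 5 lower and 2 higher. The 5 became 4 without D308N 2, 3 without D308N 1, D308V 1 or D308V 2, 2 without D308N 3 and 1 without D308V 3. HAS2, a hyaluronan synthase, was at 4.14, 2.78 and 3.203 TPM against 7.02, 7.42 and 7.45 (-0.94, adjusted p = 0.0106, lost without D308V 3). SPARC, a collagen-binding glycoprotein gene, was higher in D308N at 1035, 1002 and 1007 TPM against 844, 825 and 840.1, with no overlap (0.28, SE 0.03, adjusted p = 0.00355). COL7A1 was also higher (0.70), and its call was lost without any of D308N 2, D308N 3, D308V 2 or D308V 3. COL1A1, the main fibrillar collagen gene, was at 946, 1075 and 1057 TPM against 890.2, 726 and 822, with no overlap, but did not pass the threshold (0.34, adjusted p = 0.0813). ABI3BP, a matrix protein gene, was at 29.5, 28.8 and 26.5 TPM against 57.8, 47.3 and 53.9 (-0.88, SE 0.08, adjusted p = 0.00146). SPARC and ABI3BP lost their calls with all 30 libraries in the fit, and SPARC also without trend or robust and with the replicate block.

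Other genes with large differences act in signalling and the cell cycle. RGS4, which shortens G protein signals, was at 34.6, 27.8 and 31.9 TPM in D308N and 65.2, 60.7 and 60.6 in D308V (-0.97, SE 0.08, adjusted p = 9.73e-04). CXCL12, the chemokine that binds CXCR4, was at 101, 99.0 and 107 TPM against 184, 168 and 186 (-0.80, SE 0.05, adjusted p = 3.27e-04). For both genes each D308V library was well above each D308N library. CCND1, cyclin D1, was at 44.8, 47.5 and 47.0 TPM against 71.3, 63.3 and 70.0 (-0.54, SE 0.06, adjusted p = 0.00419). H1-2, a linker histone gene, was at 7.40, 7.79 and 8.18 TPM against 15.4, 16.1 and 18.03 (-0.99, SE 0.08, adjusted p = 9.73e-04). None of these 4 overlapped, nor did FOLR3 (-0.94), a folate receptor gene. H1-2 lost its call with all 30 libraries in the fit. FAM156B (-1.33) had the largest fall under the naming rule, but it has a near-identical copy, FAM156A, and its value is uncertain; its call was lost with no filter on low values and with 18 or 30 libraries in the fit.

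The genes highest in D308N were expressed at low levels. DMKN, dermokine, was at 5.64, 4.87 and 5.67 TPM in D308N and 1.08, 1.96 and 1.41 in D308V, 3.64 times on the means (1.38, SE 0.15, adjusted p = 0.00387). EEF1A2, the muscle and neuron form of elongation factor 1A, was at 10.7, 9.89 and 11.7 TPM against 5.49, 5.55 and 5.57 (0.85, SE 0.09, adjusted p = 0.00280). VSIR, an immune checkpoint gene, was at 13.8, 13.5 and 17.2 TPM against 8.09, 6.80 and 7.89 (0.88, adjusted p = 0.00714). The VSIR call was lost with no filter on low values and with all 30 libraries in the fit. The groups did not overlap for DMKN, EEF1A2 or VSIR, nor for LAT (0.82), a T cell signalling adaptor gene, which lost its call with no filter on low values.

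Among more abundant genes, KRT18, a keratin of simple epithelia, was at 259, 280 and 276 TPM against 198, 198 and 214 (0.42, SE 0.05, adjusted p = 0.00507). IFITM3, which blocks entry of viruses, was at 254, 273 and 265 TPM against 213, 204 and 194 (0.37, SE 0.05, adjusted p = 0.00774). Both passed with any 1 library left out, but both lost the call without trend or robust. C3 (1.14), RRAD (0.98), ZBTB46-AS2 (0.97), LAMA5 (0.92), GNB3 (0.86), STXBP2 (0.83) and RGL3 (0.81) completed the 12 largest rises with RPL3L, and each lost its call without 2 or more of the 6 libraries, C3 without D308N 3 or D308V 3 and the other 6 without, among others, D308N 2 or D308V 2.

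**Figure D4:**
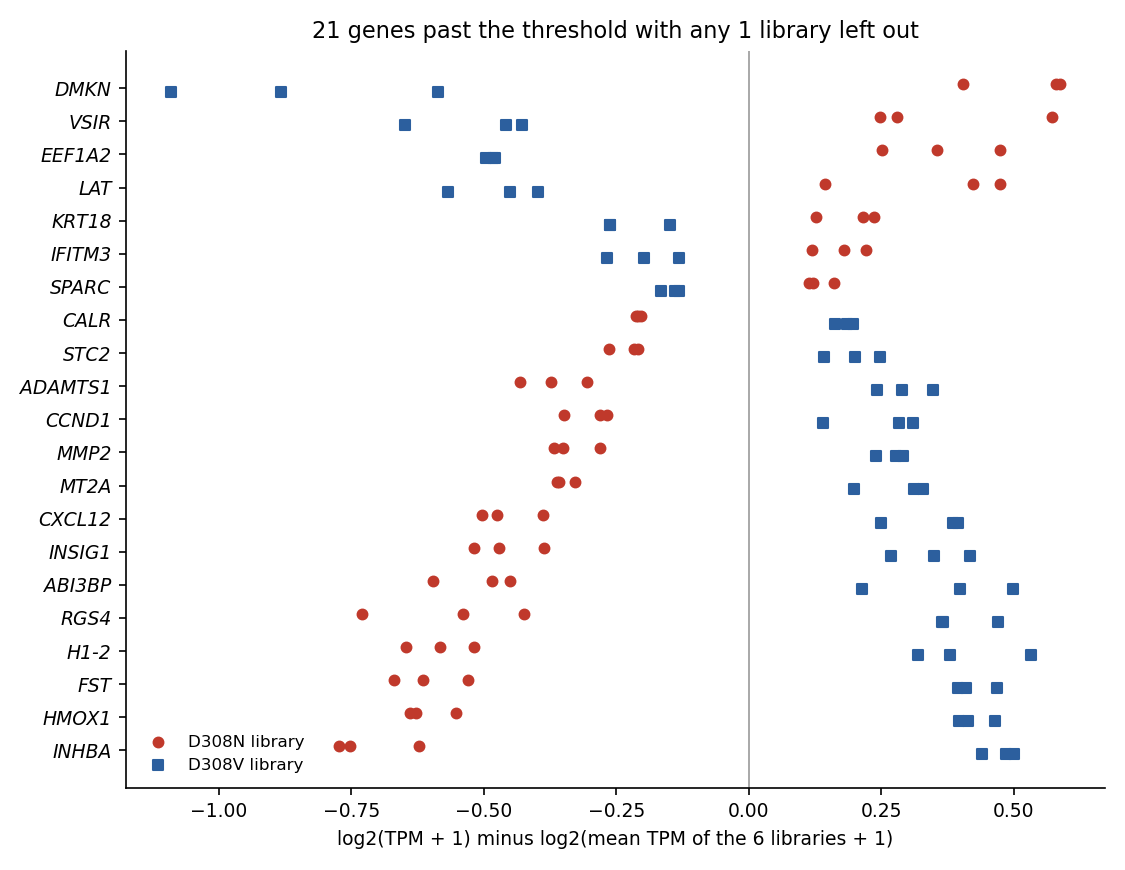
Level of 21 genes in each D308N (red circles) and D308V (blue squares) library, as log2(TPM + 1) minus the log2 of the 6-library mean TPM + 1 (x axis). For each gene the 3 red and 3 blue points fall on opposite sides of 0.

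Over 6 lists of ribosome and translation genes, the closest to the function of RPL3L, 6 of 273 genes (2.20%) passed, a share near the 3.07% of all genes. Of 49 large-subunit ribosomal protein genes, 1 was higher (RPL10A, 0.16) and 0 lower, with a median of 0.01 and a range of -0.15 to 0.16, and RPL10A lost its call without any library except D308N 1. Of 33 small-subunit genes, 62 factors of 60S assembly and 53 of 40S assembly, 0 passed in the limma fit, and the libraries did not overlap for 3 (9.09%), 14 (22.6%) and 10 (18.9%) of them, beside 26.9% of all genes. RPLP0 was at 2782, 2832 and 2787 TPM in D308N and 3012, 2943 and 2974 in D308V (-0.09, adjusted p = 0.1001). Of 32 RNA polymerase I and snoRNP genes, UBTF (0.38), which activates rRNA transcription, and POLR1H (0.31) were higher and POLR1G (-0.38) was lower, and without 1 library 0 to 3 were higher and 0 or 1 lower. Of 44 translation factor genes, EIF1AX and EEF1B2 were lower and 0 higher, and both lost the call without any of D308N 2, D308N 3, D308V 1, D308V 2 or D308V 3.

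Stress lists held calls in both directions. Of 39 ATF4 target genes, 3 (7.69%, beside 3.07% of all genes) were lower, CHAC1, STC2 and PPP1R15A, and 0 higher. The count was 2 with any 1 library left out, and CHAC1 lost its call in each of those 6 fits. STC2, stanniocalcin, was at 301, 311 and 313 TPM against 429.7, 399.5 and 416, with no overlap (-0.43, SE 0.04, adjusted p = 0.00146). PPP1R15A, which restarts translation after stress, was at 257, 265 and 257 TPM against 315, 315 and 318 (-0.28, adjusted p = 0.00590). The PPP1R15A call was lost with all 30 libraries in the fit and without trend or robust. ATF4 itself was at 1152 ± 13.4 TPM against 1198 ± 12.01 (adjusted p = 0.295). CALR, the chaperone calreticulin, was at 520.4, 524 and 522 TPM against 692, 676 and 686 (-0.39, SE 0.03, adjusted p = 5.88e-04). Of 25 endoplasmic reticulum stress genes it was the only one lower (3 were without D308N 1), and XBP1 (0.24) was the only one higher, a call lost without any library except D308N 1.

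Of 22 genes on the cytosolic heat shock list, 4 (18.2%, beside 3.07% of all genes) passed. HSPA1A, HSPA1B and HSPA8 were higher, and HSPD1, which codes for a mitochondrial rather than a cytosolic chaperone, was lower. HSPA1A was at 73.0, 90.0 and 93.6 TPM in D308N and 64.2, 54.6 and 59.8 in D308V (0.51, adjusted p = 0.0419), and HSPA1A and HSPA1B are near-identical copies whose division is uncertain. The count of 3 higher was 4 without D308N 1, 2 without D308N 2, 1 without D308V 1 and 0 without D308N 3, D308V 2 or D308V 3. Of 28 p53 target genes 0 passed in the limma fit, and 3 were higher without D308N 1. Of the list CDKN1A was at 122, 131 and 129 TPM against 111, 106 and 112 with no overlap (0.22, adjusted p = 0.0513). Of 36 interferon response genes, IFITM3 and PSMB9 were higher and 0 lower, with a list median of 0.12, and with 1 library left out IFITM3 was the only one to pass, except without D308N 1, where 3 passed as higher and 1 as lower. IFITM3 lost its call with no filter on low values and without trend or robust.

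The counts of the remaining lists were small. Calls made up 10.8% of the lysosome list and 12.9% of the YAP and immediate early list, beside 3.07% of all genes. They made up 16% of the integrin and cadherin list and 8.57% of the G2 and mitosis list. In the lysosome list 4 of 37 genes were lower (CTSB, CTSL and GLA among them) and 0 higher. The 4 became 2 without D308N 2 or D308V 1, 1 without D308V 2 and 0 without D308N 3 or D308V 3. Of 31 YAP target and immediate early genes, CCN1, CCN2, ANKRD1 and AXL were lower, and all 4 calls were lost without any of D308N 2, D308N 3, D308V 1 or D308V 3. Of 25 integrin and cadherin genes 4 were lower (ITGB1, CDH2, ALCAM and GJA1), which became 2 without D308V 1, 1 without D308N 2 or D308N 3 and 0 without D308V 2 or D308V 3. Of 35 genes of G2 and mitosis, CDC20 and UBE2C were higher and KIF23 lower, each lost without any library except D308N 1, and CCNB1 overlapped, at 264, 246 and 244 TPM against 249, 260.2 and 252. Over all 38 lists, 103 of 1167 genes tested (8.83%) passed, 27 higher and 76 lower in D308N, beside 3.07% of all genes. The lists were chosen with results of these data known, so this share is a description.

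Placed among all 10 groups, the called genes were more often extreme in D308N than in D308V. For 140 of the 442 (31.7%) the D308N mean alone lay outside the range of the 8 other group means, for 79 (17.9%) the D308V mean alone, and for 190 (43.0%) neither. Over all genes tested these shares were 14.0%, 9.71% and 61.7%. These are descriptions with no test. The groups RPL3L-WT, G27D, R161W and T189M hold libraries that differ among themselves, with EBFP2 at 0.979 to 1.57 times rtTA3 in RPL3L-WT, against 0.976 to 1.05 in D308N and 1.00 to 1.03 in D308V.

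INHBA in D308V (24.9 ± 0.56 TPM) was next to R343W (26.4 ± 0.79), whose libraries were all slightly higher, and the D308N value (10.4 ± 0.66) lay within the 7.19 to 13.6 TPM of the other 7 group means. RGS4 in D308V (62.1 ± 2.63 TPM) lay beside RPL3L-WT (61.1 ± 4.31) and T189M (66.9 ± 5.92), and in D308N (31.4 ± 3.42) beside G27D (31.3 ± 4.20) and shRPL3 (32.5 ± 0.795). The RGS4 neighbours overlapped in their libraries. HMOX1 was highest in D308V (113 ± 2.75 TPM) and shScramble (105 ± 4.68) and was 54.7 ± 1.82 in D308N, above the 27.2 to 41.2 TPM of the other groups except R343W (74.8 ± 0.55). MT2A was highest of the 10 groups in D308V.

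For the desaturase gene SCD both lines stood at the low end. SCD was lowest of the 10 groups in D308N (17.6 ± 1.148 TPM), next in D308V (25.7 ± 1.09), then in G27D (35.7 ± 2.14), and was 707 ± 12.9 in shScramble. INSIG1 was lowest in D308N (37.5 ± 1.78 TPM), then in G27D (41.9 ± 3.49), and D308V (66.2 ± 3.46) lay beside P291L (65.4 ± 3.16).

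**Figure D5:**
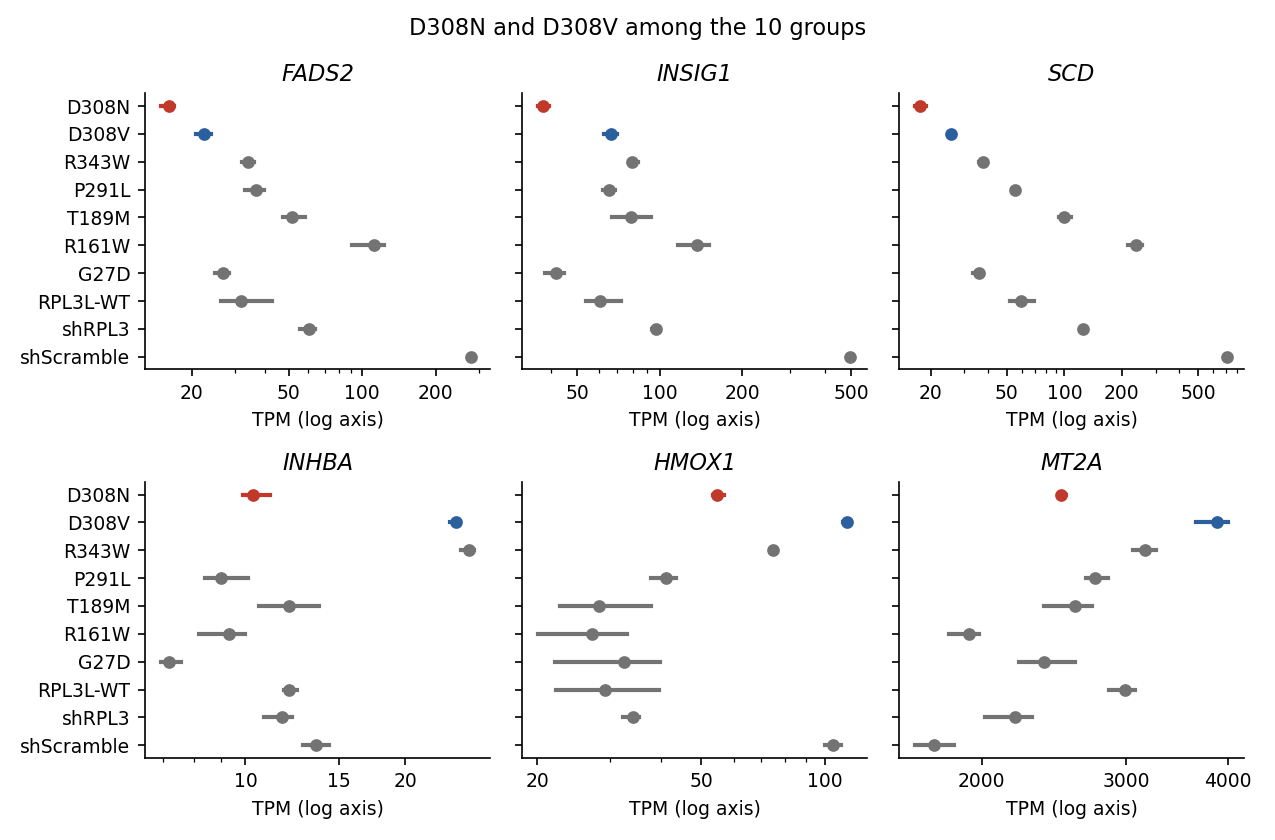
TPM on a log axis of 6 genes in the 10 groups, with the group mean as a point and the range of its 3 libraries as a line, D308N in red and D308V in blue. D308N and D308V hold the 2 lowest values of FADS2 and SCD, while for INHBA the D308V line sits beside R343W and the D308N line among the other groups.

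Of 14426 genes with a mean of at least 1 TPM over the 30 libraries, 277 (1.92%) had all 6 libraries of the 2 lines on one side of the other 24, 162 above and 115 below. The same count was 190 for D308V with R343W, 31 for D308N with R343W, 18 for R343W with P291L, 5 for D308N with P291L and 1 for D308V with P291L. Of the 162 above, 5 (3.09%) also differed between the lines past the threshold, LIMD2, SNHG5, DPF2 and SCNM1 higher in D308N and IL24 lower, and of the 115 below, 5 (4.35%), beside 3.07% of all genes. Those below included SCD, STARD4, FADS2 and SREBF2, and in all 5 D308N was the lower one. The 4 named, picked from the 5 after their values were seen, are targets or members of the SREBP pathway. The share of 4.35% was near that of all genes. SCD lost its call without D308N 3 or D308V 3, and STARD4 and FADS2 without any 1 library. Other genes below were KIF20A, a mitotic kinesin gene, at 51.1 to 56.1 TPM in the 6 libraries and 79.6 to 132 in the other 24, and C1S, a complement protease gene, at 7.08 to 8.503 and 12.6 to 31.5 TPM. Among genes above were TXNIP, which restrains glucose uptake, at 177 to 198 TPM against 0.845 to 128, the snoRNA host GAS5 at 1261 to 1371 against 259 to 973, and SCG5, a neuroendocrine chaperone gene, at 28.1 to 35.0 against 0.416 to 20.2. D308N and D308V did not differ past the threshold for KIF20A, C1S, TXNIP, GAS5 or SCG5. These genes were picked for their size after the values were seen.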

How the data were processed

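Per the labels' protocols, whole-cell RNA went through polyA pull-down before TruSeq library construction. Software in the submitters' processing notes is kallisto, Bowtie, bedtools and bcl2fastq 2.19. Index and build: not given in the sources used here. Values deposited by the authors are TPM per gene for 30 whole-cell libraries in a table of 60612 entries, of which 6 are construct sequences left out of tests, and 0 value columns were left unmatched. Deposited counts of nuclear rRNA regions were not used here. Genes with a mean of at least 1 TPM over the 6 libraries were tested on log2(TPM + 1) with limma 3.58.1 in R 4.3.3 (lmFit, then eBayes with its trend and robust options). P-values were two-sided, were adjusted over all genes tested by the Benjamini-Hochberg method, and passed under 0.05. A fold change on this scale understates the change of low genes. Named genes were RPL3, RPL3L, the 12 with the largest call each way (protein-coding or named non-coding symbol, higher group's mean at least 5 TPM, no overlap), up to 4 such members per list, and each list's first gene. MT1X, MT-ND3, MT-ND6, the called list members given only as a name or fold change, and the genes of the last paragraph were chosen after their values were seen. Members, lists and tests were chosen with earlier results of these data known. Same-numbered replicates did not deviate together (correlations of -0.05, -0.04 and -0.02). Positions are from GENCODE 29 (GRCh38). The 15 alternatives are given in the closing section. Some genes are not reported here.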

Additional observations from a re-analysis of the deposited data

How the results depend on the processing

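The counts of 196 genes higher and 246 lower in D308N were 227 and 279 with a pseudocount of 0.1 and 198 and 248 with 0.5. They were 24 and 63 with no filter on low values, where 33397 genes shared the adjustment, and 344 and 364 with a mean of at least 5 TPM. Median-ratio scaling gave 177 and 281. With all 30 libraries in the fit they were 126 and 136, with 18 libraries of 6 groups 573 and 642 (1215 in all for this pair), and without trend or robust 56 and 85. Leaving out 1 library gave 34 to 230 higher and 76 to 274 lower. The replicate block gave 16 and 54. The labels do not say whether same-numbered libraries belong together, and the reason for these lower counts was not tested. Genes of the lists past the threshold, 103 in all, were 26 with no filter, 50 with 30 libraries, 202 with 18 libraries, 30 without trend or robust, 22 with the replicate block, and 28 to 104 with 1 library left out. RPL3L kept its log2 fold change of 0.84 but not its call with 30 libraries (adjusted p = 0.861) and with 18 (adjusted p = 0.766), fits that hold shRPL3 libraries with RPL3L between 0.0290 and 121 TPM; otherwise its call held. RPL3 lost its call with the replicate block (adjusted p = 0.0611), with 30 libraries and without trend or robust. Genes lower by list, with 30 libraries, without trend or robust, and with no filter, were 5, 4 and 3 for NRF2 (6 in the report), 3, 2 and 4 for TGF-beta (6), 5, 2 and 2 for metalloproteinases (6), 1, 1 and 1 for cholesterol synthesis (4) and 2, 3 and 1 for matrix (5). With the replicate block they were 4, 2, 2, 1 and 0, in the same order of lists. The cause was not tested. Of 105 named genes called, 32 passed in all 6 fits that leave out 1 library. Of the 105, 77 lost their call with no filter, 57 with 30 libraries, 3 with 18, 10 with median-ratio scaling, 71 without trend or robust and 79 with the replicate block. The 79 include SPARC, IFITM3, PPP1R15A, LAT, CCND1 and FAM156B. Depth is unknown, so the sampling error of low genes is not known.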

Other observations

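A few transcripts were seen in 1 line and hardly anywhere else. With at least 2 TPM in all 3 libraries of a group and under 0.5 TPM in the 27 others, D308N had 5 such entries and D308V had 3, against 3 in G27D, 2 in R343W, 1 each in P291L, R161W and T189M, and 0 in shScramble, shRPL3 and RPL3L-WT. This search was set up after the values were seen and has no test. MIR548T, listed as a microRNA at chr4:173268160-173268233, was at 11.4, 8.95 and 8.82 TPM in D308N and at 0 in all 27 other libraries. ENSG00000285664, listed as an antisense gene at chr14:52791785-52930019, was at 8.501, 6.82 and 7.28 TPM in D308N and at most 0.241 elsewhere. In D308V the pseudogene RNA5SP189, at chr5:105922994-105923108, was at 28.7, 14.4 and 24.2 TPM, and the pseudogene TTC39CP1, at chr4:116193997-116194751, at 5.72, 4.85 and 3.91 TPM, both at 0 in the 27 other libraries. Short and pseudogene entries can draw reads from other sequences, so which transcripts these are is uncertain.

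Short non-coding genes and pseudogenes also held most of the large changes between the lines. Of the 36 called genes that moved by more than 1 on the log2 scale, 20 were of these classes, which supplied 30 of the 442 calls. Their share of calls was near that of all genes: 3.44% of short non-coding genes and 2.4% of pseudogenes, beside 3.07%. Across 23 chromosomes, the median log2 fold change of the genes tested lay between -0.05 and 0.07.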
